A study of Mus musculus with 26 samples.

Results

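The clustered replication-dependent histone genes were examined in mouse ES cells with and without ZFP57. The family was taken as every gene of the expression table whose symbol starts with Hist1h, Hist2h, Hist3h or Hist4h, and it comprised 68 of 24409 genes. Its members code for the linker histone H1 (6 genes) and for the core histones H2A (18), H2B (19), H3 (12) and H4 (13). By cluster, 54 belonged to Hist1, 10 to Hist2, 3 to Hist3 and 1 to Hist4.

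All libraries came from male ES cells of the C57BL/6J strain, called blastocyst-derived in the study. Per the labels, the embryos were collected as morulae and cultured further before the inner cell mass was isolated. The cells were grown in N2B27 medium with LIF and the 2i inhibitors PD0325901 and CHIR99021. The WT group held 3 RNA-seq libraries, and the ZFP57 KO group held 2 libraries from zygotic mutants, in which coding exons 4 and 5 of Zfp57 (KRAB domain and zinc fingers) had been disrupted by gene targeting. ZFP57 is a KRAB zinc finger protein that maintains DNA methylation at imprinting control regions. Total RNA was depleted of ribosomal RNA rather than selected for poly(A), and expression was deposited as FPKM, a fragment count divided by the length of the transcript and the size of the library.

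Most transcripts of this family end in a short stem-loop instead of a poly(A) tail. The stem-loop is bound by SLBP, the nascent RNA is cut behind it by a machinery that includes the U7 small nuclear ribonucleoprotein and CPSF3, and NPAT drives transcription of the clusters at the histone locus body. The transcripts accumulate in S phase, when new DNA is packaged into nucleosomes, and are degraded when replication stops. The testis-type histones H1t, TH2A and TH2B, which are used in male germ cells, sit in the same clusters.

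Positions of the members were read from RefSeq genes on GRCm38 (mm10). The Hist1 genes lay on chromosome 13 in 4 runs separated by more than 150 kb, at chr13:21715711-21837530 (18 members), chr13:22035122-22043658 (5), chr13:23531044-23764412 (29) and chr13:23933725-23934913 (2). The Hist2 genes lay at chr3:96219885-96270192, the Hist3 genes at chr11:58948911-58955192 and Hist4h4 at chr6:136803993-136804431.

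The stem-loops are shown because they mark these transcripts as the non-polyadenylated class. They were found in the RefSeq transcripts within 150 bases behind the stop codon, as the 16-base sequence most often shared. A stem-loop was found in 66 of the 67 members with a coding sequence, 22 to 59 bases behind the stop codon (median 31.5). Capitals mark the 6-base arms of the stem, lower case the 4-base loop.
Hist1h1a and 40 other members of types H1, H2A, H2B and H3: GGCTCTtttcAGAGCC
Hist1h1t and 8 other members, with another last loop base: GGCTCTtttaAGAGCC
Hist1h4d and 7 other H4 members: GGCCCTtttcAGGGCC
Hist1h4i and Hist2h4: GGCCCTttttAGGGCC
Hist1h4b and Hist1h4j: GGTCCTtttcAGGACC
Hist1h2an, whose arms do not pair in all 6 positions: GGCTCTtttcAGAGCT
All 13 H4 genes carried arms with another sequence than the 41 genes of the first line, and none of the 41 was an H4 gene. The H2B gene Hist2h2be had no such stem-loop in this window. It is annotated with a transcript of 2667 bases and was listed at only 0.20 to 0.28 FPKM in the 5 libraries. The median log2 fold change between KO and WT was 0.19 for the 41 members of the first line, 0.16 for the 9 of the second and 0.14 for the 8 of the third.

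Many core histone genes encode a common protein, while the 6 H1 genes each encode their own. The 13 H4 genes encoded 1 protein of 103 residues, the 12 H3 genes encoded 2 proteins, 9 of the 18 H2A genes encoded 1 protein and 6 of the H2B genes encoded another. Fragments from such genes can be shared, and how the counting split them was not given in the sources used here. In 4 pairs the FPKM multiplied by transcript length agreed within 0.0194% in every library, so the rows of a pair may count the same fragments (Hist1h2ao and Hist1h2ap, Hist1h2bq and Hist1h2br, Hist2h2aa1 and Hist2h2aa2, Hist2h3c1 and Hist2h3c2). Values of single H2A, H2B, H3 and H4 genes are therefore uncertain as to which copy made the RNA.

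The step between low FPKM values gave 0.0170 to 0.0197 FPKM for 1 fragment on 1 kb. On this scale the values of the 63 members with a single transcript length rested on 9 to 37215 fragments (median 1580). Zfp57 was at 75.9, 72.3 and 70.6 FPKM in WT and at 19.0 and 21.6 FPKM in KO, so RNA of the disrupted gene was reduced but still present in both KO libraries. Of the 14612 genes tested in WT against KO, 41.1% were called, 18.8% higher and 22.3% lower in KO. The ES cell genes Pou5f1, Nanog and Sox2 were between 78.2 and 210 FPKM in all libraries, while the 8 fibroblast feeder markers summed to 0.17 to 0.36 FPKM, with Col3a1, Dcn and Lum at 0 throughout. In bulk RNA, fewer cells with a transcript and less of it per cell cannot be told apart.

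The first question was whether histone RNA differed between WT and KO cells, and 26 of the 68 members were called higher in KO, by small amounts. A gene was called when its adjusted p in limma was under 0.05 over all tested genes. All 68 members were tested. Of these, 26 (38.2%) were called higher in KO, beside 18.8% of all tested genes, 6 (8.82%) were called lower, beside 22.3%, and 36 were not called. In all, 47.1% of the members were called, beside 41.1% of all tested genes. The log2 fold change was positive in 56 members and negative in 12, with a median of 0.17, while the median of all tested genes was -0.01. In 39 members (57.4%) both KO libraries lay above all 3 WT libraries, beside 30.3% of all tested genes, and in 7 (10.3%) both lay below, beside 33.1%. The differences were small, the largest rise being 0.57 on the log2 scale. Only 3 members were both called and changed by at least 1 on the log2 scale, beside 8.02% of all tested genes, and these 3 (Hist1h1t, Hist3h2ba and Hist3h2bb-ps) were lower in KO. With each of these pairs counted once, 25 of 64 were higher and 6 lower. Without the trend option of limma, 12 members (17.6%) were called higher, beside 16% of all tested genes. The number of calls also depended on single libraries. Without KO replicate 2, 16 members (23.5%) were called, beside 28.3% of all tested genes, and without WT replicate 1, 21 (30.9%), beside 31.8%, so the share called in either direction was then below that of all genes. The share called higher was 19.1% beside 12.4% and 26.5% beside 14.7%.

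**Figure D1:**
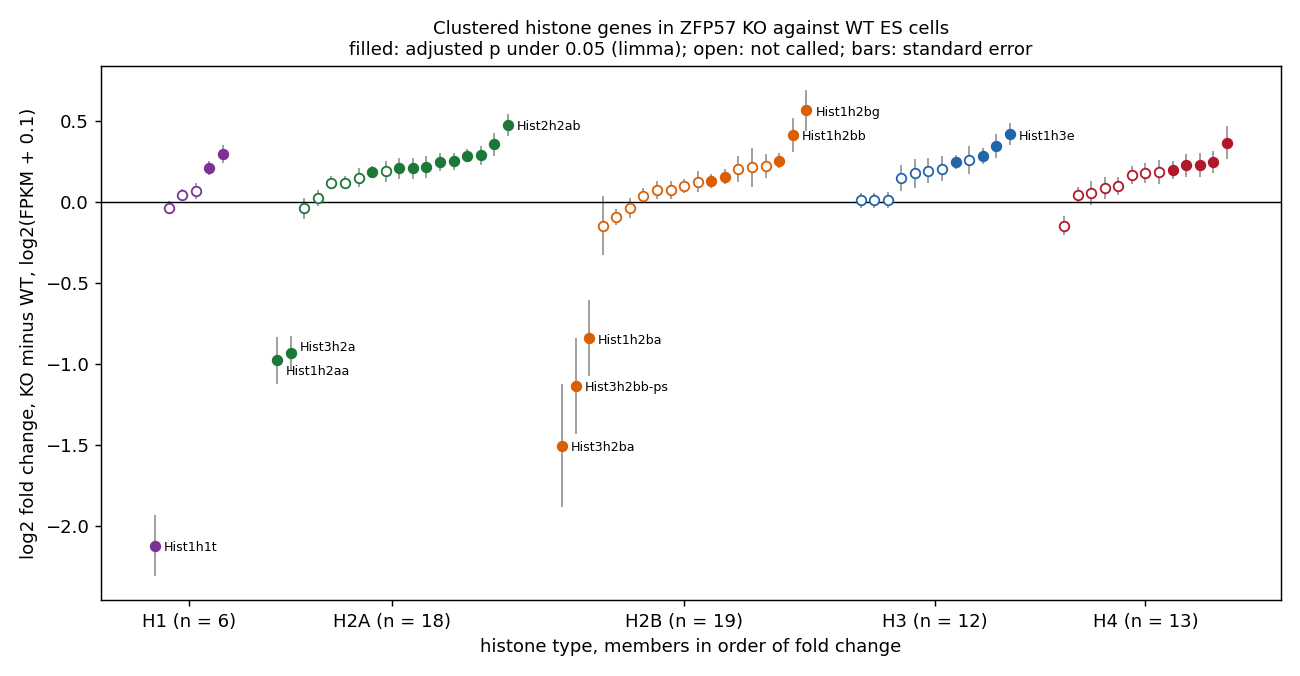
Each point is a member, with its log2 fold change (KO minus WT, on the log2(FPKM + 0.1) scale) and standard error, grouped by histone type. Filled points were called in limma, and the 6 filled points below 0 lie at -0.84 or lower while none of the rises exceeds 0.57.

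The shift was visible in each KO library. Relative to the other WT libraries, the median member deviated by -0.05 in WT replicate 1, 0.00 in WT replicate 2 and 0.07 in WT replicate 3 on the log2 scale. In these WT libraries 23, 35 and 48 of the 68 members lay above the mean of the other WT libraries. The median member deviated by 0.14 in KO replicate 1, where 58 of 68 members lay above the WT mean. In KO replicate 2 it deviated by 0.19, and 55 members lay above. Over all tested genes the same deviations ranged from -0.02 to 0.03.

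**Figure D2:**
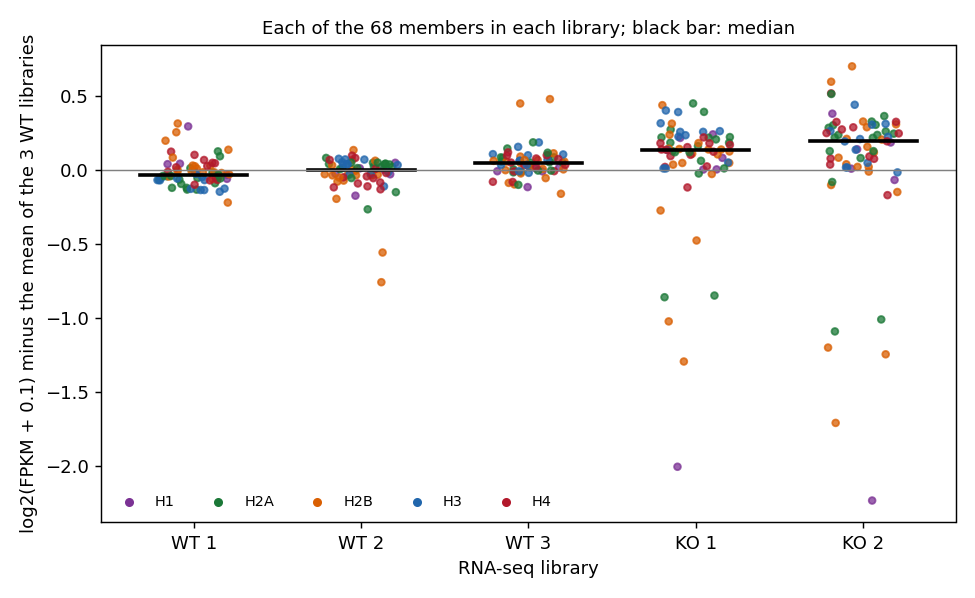
Each point is a member in a library, as log2(FPKM + 0.1) minus the mean of the 3 WT libraries, coloured by histone type, with a black bar at the median. The bars of both KO libraries lie above those of all WT libraries, and a few members fall far below 0 in KO.

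Summed over the family, histone RNA made up 2.88, 3.03 and 3.08% of all FPKM in the WT libraries and 3.28 and 3.51% in the KO libraries. The sums were 6019, 6294 and 6506 FPKM in WT and 6994 and 7510 FPKM in KO, so the genotypes did not overlap. The mean was 6273 ± 244 FPKM in WT (SD, n = 3) and 7252 ± 365 FPKM in KO (SD, n = 2), 15.6% higher. The sum is given as a description, with no p. By type the KO mean was 9.9% higher for H1, 9.8% for H2A, 15.8% for H2B, 16.4% for H3 and 23.6% for H4. A single gene, Hist1h4d, held 70.1% of the H4 sum and 19.7% of the family sum, and without it the log2 ratio of the family sums went from 0.21 to 0.17. By cluster the KO mean was 20.2% higher for Hist1 and 4.9% higher for Hist2, and it fell by 48.5% for Hist3 and by 9.8% for Hist4.

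**Figure D3:**
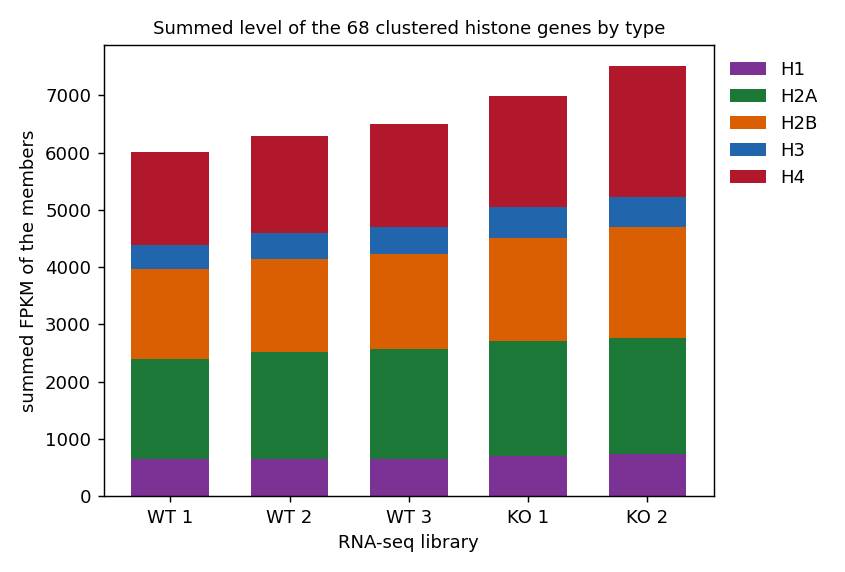
Stacked bars give the summed FPKM of the 68 members in each library, split by histone type. Both KO bars are taller than the 3 WT bars, 6994 and 7510 FPKM against 6019 to 6506 FPKM.

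Linker histone H1 binds the DNA between nucleosomes and compacts chromatin. Of the 6 H1 genes, 2 (33.3%) were called higher and 1 (16.7%), Hist1h1t, lower, beside 18.8% and 22.3% of all tested genes. Without the trend 1 (16.7%) was called higher, beside 16%. The 5 somatic H1 genes were at 52.9 to 189 FPKM in the 5 libraries, and 2 of them were called higher. Hist1h1d was at 142, 146 and 148 FPKM in WT and at 168 and 189 FPKM in KO. Its KO libraries were both above WT, with a log2 fold change of 0.30 (SE 0.06, adjusted p = 0.00785). Hist1h1b was at 125, 135 and 132 FPKM in WT and at 154 and 148 FPKM in KO, a log2 fold change of 0.21 (SE 0.05, adjusted p = 0.0126 in limma). The Hist1h1b call was lost without KO replicate 1 (0.18, adjusted p = 0.061) and without the trend (adjusted p = 0.053 in limma). The other three did not pass the test, and in each of them the genotypes overlapped. Hist1h1a was at 157 to 159 FPKM in WT and 159 and 167 FPKM in KO, Hist1h1c at 161 to 168 and 164 and 180 FPKM, and Hist1h1e at 54.4 to 57.1 and 52.9 and 55.6 FPKM.

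H2A and H2B pair to dimers that sit on either face of the nucleosome. Of the 18 H2A genes, 10 (55.6%) were called higher, 2 (11.1%) lower and 6 not, beside 18.8% and 22.3% of all tested genes, with a median log2 fold change of 0.20. In 14 (77.8%) both KO libraries lay above WT, beside 30.3%. In all, 12 H2A genes (66.7%) were called, beside 41.1% of all tested genes, and without KO replicate 2 it was 6 (33.3%), beside 28.3%. Whether the types differ from each other was not tested. The most abundant H2A rows, Hist2h2aa1 and Hist2h2aa2, form a pair of rows with nearly equal fragments. Hist2h2aa1 was at 233, 248 and 239 FPKM in WT and at 260 and 262 FPKM in KO, above all WT libraries but not called (log2 fold change 0.12, adjusted p = 0.0553 in limma). It was called with the median of each chromosome subtracted (adjusted p = 0.0413), with a filter of 1 FPKM (0.0449) and with a pseudocount of 0.01 (0.0499). The largest rise of the type was in Hist2h2ab, at a much lower level. It was at 9.55, 9.03 and 8.34 FPKM in WT and at 12.3 and 12.8 FPKM in KO, a log2 fold change of 0.48 (SE 0.07, adjusted p = 0.00292).

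Of the 19 H2B genes, 5 (26.3%) were called higher, 3 (15.8%) lower and 11 not, beside 18.8% and 22.3% of all tested genes, with a median of 0.10. The 8 calls (42.1%, beside 41.1% of all tested genes) went down to 3 (15.8%) without KO replicate 2, WT replicate 1 or WT replicate 3, beside 28.3, 31.8 and 29.3%, and to 5 (26.3%) without WT replicate 2, beside 32.6%. Hist2h2bb, the most abundant, did not pass the test and overlapped between genotypes, at 591, 585 and 626 FPKM in WT and 620 and 616 FPKM in KO. Hist1h2bg, the second most abundant, showed the largest rise of the family. It was at 268, 342 and 332 FPKM in WT and at 422 and 507 FPKM in KO, with a log2 fold change of 0.57 (SE 0.13, adjusted p = 0.0144). This call was lost without KO replicate 2, when the difference was 0.44 and the adjusted p 0.0898. Hist1h2bb was at 121, 133 and 127 FPKM in WT and 150 and 192 FPKM in KO, a log2 fold change of 0.42 (SE 0.10, adjusted p = 0.0212 in limma), and the call was lost without WT replicate 1 (adjusted p = 0.0647) or WT replicate 3 (adjusted p = 0.0636).

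All 12 H3 genes had a positive log2 fold change, of 0.01 to 0.42, of which 4 (33.3%) were called higher, beside 18.8% of all tested genes. Hist1h3e rose most, from 57.2, 65.6 and 65.3 FPKM in WT to 82.6 and 84.9 FPKM in KO, a log2 fold change of 0.42 (SE 0.07, adjusted p = 0.00444). Hist1h3b, at a similar level, was at 60.4, 64.8 and 73.5 FPKM in WT and 82.1 and 76.2 FPKM in KO, and did not pass the test (log2 fold change 0.26, adjusted p = 0.0512 in limma), but it passed without WT replicate 3 (adjusted p = 0.0168) and with a filter of 1 FPKM (0.0437). H3 and H4 form the core tetramer of the nucleosome. The median log2 fold change was 0.20 for the 4 genes that share their protein with Hist1h3a and 0.21 for the 8 that share theirs with Hist1h3b.

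Of the 13 H4 genes, 5 (38.5%) were called higher, beside 18.8% of all tested genes, none lower in limma (1 at an unadjusted p under 0.05) and 8 not, with a median of 0.18. Hist1h4d was by far the highest of the whole family, at 1093, 1178 and 1253 FPKM in WT and at 1365 and 1677 FPKM in KO. Both KO libraries were above WT, with a log2 fold change of 0.37 (SE 0.10, adjusted p = 0.0305 in limma). The call rested on single libraries, with adjusted p values of 0.127 without KO replicate 2, 0.0854 without WT replicate 1 and 0.0811 without WT replicate 2. It was also lost without the trend (adjusted p = 0.0694) and without the filter (0.0671). The next H4 gene, Hist2h4, was at 74.9, 76.4 and 85.5 FPKM in WT and at 88.5 and 90.0 FPKM in KO (log2 fold change 0.18, adjusted p = 0.0602), and it was called without WT replicate 3 (adjusted p = 0.0152). The number of H4 genes called in limma depended on single libraries, with 0 called (0 at an unadjusted p under 0.05) without KO replicate 2, 1 without WT replicate 1, 1 without WT replicate 2 and 2 without WT replicate 3. In these fits 28.3, 31.8, 32.6 and 29.3% of all tested genes were called.

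By position, rises occurred in 3 of the 4 Hist1 runs. In the run at chr13:21715711-21837530 all 18 members had a positive log2 fold change and 8 were called higher, in the run of 5 members 3 were called higher, and in the run of 29 members 13 were called higher and 1, Hist1h1t, lower. Over Hist1 as a whole, 24 of 54 (44.4%) were called higher, beside 18.8% of all tested genes, and 3 lower, with a median of 0.19. Without the trend 10 (18.5%) were called higher, beside 16%. In the fit that left out WT replicate 1, the higher calls in Hist1 were 16 (29.6%), beside 14.7%. In Hist2, 2 of 10 (Hist2h2ab and Hist2h3b), 20% beside 18.8% of all tested genes, were called higher and none lower in limma (0 at an unadjusted p under 0.05), with a median of 0.08. The other genes of chromosome 13 had a median of 0.02 over 502 tested genes, and those of chromosome 3 a median of -0.01 over 651. The median of these other genes of each chromosome was also subtracted in each library. In this fit 19 of the 54 Hist1 genes (35.2%) were called, beside 37.3% of all tested genes, and 16 (29.6%) were called higher, beside 18.6%. In Hist2 4 of 10 genes (40%) were then called, all of them higher. Higher calls in Hist2 also numbered 4 with a filter of 1 FPKM (44.4% of 9 tested, beside 23.4%). With a pseudocount of 0.01 they were 4 (40%, beside 18.7%). Of the non-histone genes within 100 kb of the Hist1 runs, 6 were tested. Only Hfe, at 0.16 to 0.17 FPKM in WT and 0.03 to 0.04 FPKM in KO, was called, lower in KO. Within 100 kb of Hist2, 2 of 5 tested genes, Bola1 and Mtmr11, were called higher and none lower.

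The 6 members called lower in KO were the 3 testis-type genes of Hist1 and the 3 members of Hist3. Hist1h1t, the gene of H1t, was at 1.92, 1.36 and 1.42 FPKM in WT and at 0.31 and 0.25 FPKM in KO, well apart. It fell by 2.12 on the log2 scale (SE 0.19, adjusted p = 0.0007 in limma), on 53 to 78 fragments in WT and 12 and 10 fragments in KO. Hist1h2aa, the gene of TH2A, was at 8.06, 6.12 and 8.17 FPKM in WT and at 4.02 and 3.41 FPKM in KO, and fell by 0.98 (SE 0.14, adjusted p = 0.00337). Hist1h2ba, the gene of TH2B, is named because it completes the 6, a choice made after its values were seen. It was at 3.52, 2.55 and 2.82 FPKM in WT and at 2.08 and 1.22 FPKM in KO, and fell by 0.84 (SE 0.24, adjusted p = 0.0318), on 47 and 29 fragments in KO. This call was lost without KO replicate 2 (adjusted p = 0.13), WT replicate 1 (0.0879), WT replicate 2 (0.0536) or WT replicate 3 (0.0763), and without the trend (0.0654) or the filter (0.0629). All 3 were below 10 FPKM in every library.

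In Hist3, on chromosome 11, Hist3h2a was at 74.4, 68.6 and 86.6 FPKM in WT and at 42.2 and 37.7 FPKM in KO. Hist3h2ba was at 1.73, 0.77 and 1.91 FPKM in WT and at 0.50 and 0.35 FPKM in KO, and the pseudogene Hist3h2bb-ps at 1.71, 1.06 and 2.28 FPKM and 0.74 and 0.62 FPKM. All 3 genes were separated between genotypes. They fell by 0.93 (SE 0.10, adjusted p = 0.00132), 1.50 (SE 0.38, adjusted p = 0.0219) and 1.14 (SE 0.30, adjusted p = 0.0248 in limma), Hist3h2ba and Hist3h2bb-ps on 9 to 18 fragments in KO. Their chromosome moved in the same direction. Of 1223 other tested genes on chromosome 11, 824 were called lower and 33 higher, with a median of -0.47, close in both KO libraries (-0.45 and -0.50). With the median of each chromosome subtracted, Hist3h2a was still called (-0.45, adjusted p = 0.0081), whereas Hist3h2ba (-1.03, adjusted p = 0.0691) and Hist3h2bb-ps (-0.66, adjusted p = 0.112) were not. The calls of Hist3h2ba and Hist3h2bb-ps were also lost without KO replicate 1 (adjusted p = 0.0602 and 0.0751), KO replicate 2 (0.122 and 0.125), WT replicate 1 (0.0673 and 0.0727) or WT replicate 3 (0.0645 and 0.0532). Of the 4 tested neighbours of Hist3 within 100 kb, Zfp39, Rnf187 and 2810021J22Rik were called lower and Trim11 was not called. Per the labels, each ES cell line was karyotyped when it was established. The cause of the shift of chromosome 11, and its part in the Hist3 values, was not tested.

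**Figure D4:**
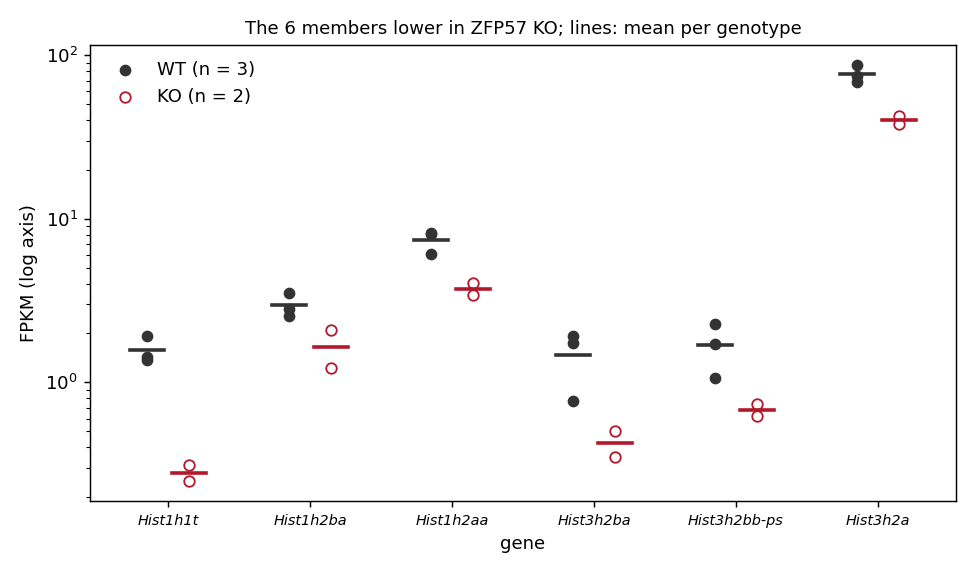
Points give the FPKM of the 6 members called lower in each WT library (filled) and each KO library (open), on a log axis, with a line at the mean of each genotype. The KO points lie below the WT points in all 6 genes, and Hist3h2a is the only one above 10 FPKM.

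Hist4h4, the single member on chromosome 6, was at 14.3, 12.9 and 13.9 FPKM in WT and at 12.6 and 12.1 FPKM in KO. Both KO libraries were below WT, but the gene did not pass the test (log2 fold change -0.15, SE 0.06, adjusted p = 0.0914). The 678 other tested genes of chromosome 6 had a median of 0.17, and with that median subtracted Hist4h4 was called lower (-0.31, adjusted p = 0.0122 in limma). All 3 tested neighbours within 100 kb, BC049715, H2afj and Wbp11, were called higher in KO.

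H2A and H2B genes often lie head to head and start from a common stretch of DNA. There were 13 such pairs with 163 to 280 bases between the genes, and 2 of them, Hist1h2ao with Hist1h2bq and Hist1h2ap with Hist1h2br, rest on nearly equal fragments gene by gene (FPKM multiplied by length). The sign of the log2 fold change was the same within 11 pairs and opposite in 2. The sizes differed within a pair by 0.03 to 0.38 (median 0.13). Among all members, 15 of 18 H2A genes and 13 of 19 H2B genes had a positive sign, and 66.7% and 42.1% were called. Whether paired genes agree more than other H2A and H2B genes was not tested. In 4 pairs both genes were called, but without KO replicate 2 at least 1 gene of each of these pairs was not. Both rose in Hist1h2ae with Hist1h2bg (0.19 and 0.57) and in Hist1h2ai with Hist1h2bl (0.29 and 0.16). Both fell in Hist1h2aa with Hist1h2ba (-0.98 and -0.84) and in Hist3h2a with Hist3h2bb-ps (-0.93 and -1.14). The Hist1h2bl call was also lost without WT replicate 1 (adjusted p = 0.0959 in limma), WT replicate 2 (0.0682) or WT replicate 3 (0.0822). It was lost too without the trend (0.11), without the filter (0.0535) and with chromosome medians subtracted (0.108).

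**Figure D5:**
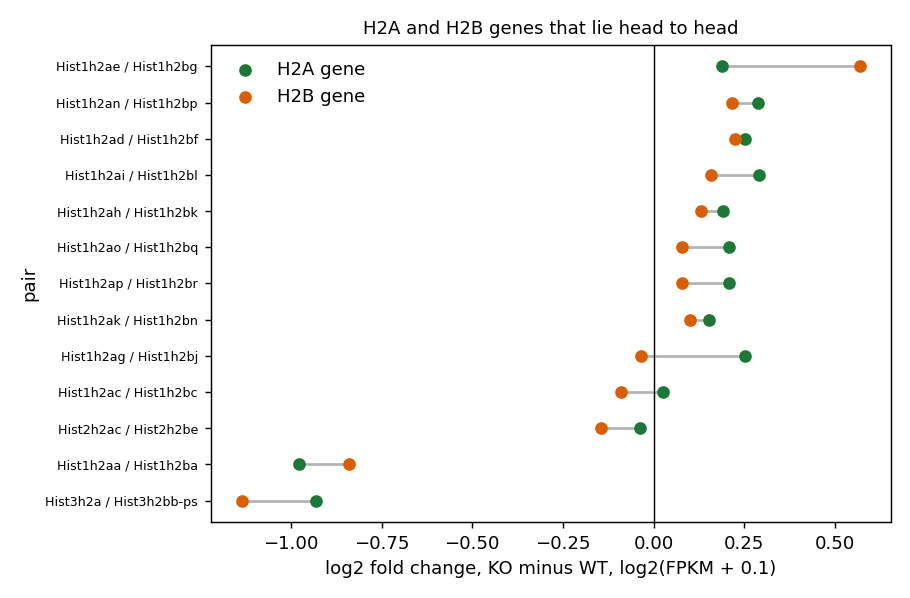
Each line joins the H2A and the H2B gene of a head-to-head pair at their log2 fold changes (KO minus WT, on the log2(FPKM + 0.1) scale). The testis-type pair and the Hist3 pair stand at -0.84 or lower, and the other pairs lie between -0.14 and 0.57.

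The stretches between the genes are shown for 2 pairs that moved together, the pair that holds the largest rise of the family and the testis-type pair. They are given on the plus strand of GRCm38, with capitals for 3 motifs on either strand, which do not overlap each other here. The CCAAT box is bound by NF-Y, the TATAAA box places the start of transcription, and the letters ATTTGCA are the core of the octamer bound by OCT factors.
Hist1h2ae to Hist1h2bg, chr13:23571221-23571399: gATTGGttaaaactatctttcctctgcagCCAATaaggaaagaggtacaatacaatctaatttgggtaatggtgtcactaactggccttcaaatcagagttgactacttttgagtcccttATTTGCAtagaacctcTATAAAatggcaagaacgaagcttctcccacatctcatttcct
Hist1h2ba to Hist1h2aa, chr13:23934157-23934436: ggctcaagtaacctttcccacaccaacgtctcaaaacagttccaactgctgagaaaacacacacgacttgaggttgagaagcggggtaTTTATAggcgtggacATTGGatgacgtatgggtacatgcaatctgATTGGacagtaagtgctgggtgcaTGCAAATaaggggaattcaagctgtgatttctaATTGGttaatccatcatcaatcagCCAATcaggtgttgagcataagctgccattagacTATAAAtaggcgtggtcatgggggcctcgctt
The first stretch, of 179 bases, held 2 CCAAT, 1 TATAAA and 1 ATTTGCA. The second, of 280 bases, held 4 CCAAT, 2 TATAAA and 1 ATTTGCA.

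Over the 62 members with a RefSeq promoter (250 bases before to 50 after the start), TATAAA was found in 56.5%, beside 13.6% of all 32851 promoters of that length. CCAAT was found in 85.5%, beside 37.4%, and was in all promoters of H1, H2A, H2B and H3 genes but in 25% of those of H4 genes. ATTTGCA was found in 22.6%, beside 4.02%, in 7 of 18 H2A and 7 of 16 H2B promoters and in none of the other types. TGCCGC, the hexanucleotide bound by ZFP57 when methylated, was found in 9.68%, beside 11.6%. All 4 were searched on both strands, and a match says only that these letters are present.

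No member overlapped any of the 1423 ZFP57 peaks of C57BL/6J ES cells. A peak lay within 20 kb of 2 members (2.94%, RefSeq positions), beside 4.92% of the tested genes with a position (mostly GENCODE positions). These were Hist1h1e, at 16323 bases, and Hist1h2be, at 17757 bases, and neither was called (log2 fold changes -0.03 and 0.13). The Hist1h2be distance is counted from the end of its annotated gene, chr13:23621124, while its stem-loop lies at chr13:23585531-23585546. The distances of both genes are to the only peak inside the Hist1 span, chr13:23638881-23639060, which is shown because it is the nearest ZFP57 site to every Hist1 gene. All of its 180 bases are marked as repeat in the genome file. Capitals mark its single hexanucleotide, which reads TGCCGC on the other strand.
ZFP57 peak in Hist1: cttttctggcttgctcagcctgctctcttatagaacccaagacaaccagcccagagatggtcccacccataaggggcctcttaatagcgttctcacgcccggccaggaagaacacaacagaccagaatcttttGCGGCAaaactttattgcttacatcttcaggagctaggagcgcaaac
The nearest peak to Hist1h1t lay 56751 bases away, to Hist1h2bg 67018 and to Hist1h4d 56912. Members of Hist3 lay 426987 to 432761 bases from a peak and Hist4h4 321062 bases. The peaks were deposited without a height, so binding strength could not be compared.

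Genes of histone RNA metabolism were listed beside the family. Of 32 genes for transcription and 3-prime processing of histone RNA, 3 (9.38%) were called higher, 8 (25%) lower and 21 not, beside 18.8% and 22.3% of all tested genes. The stem-loop binding protein gene Slbp was at 29.9, 28.5 and 31.0 FPKM in WT and at 31.9 and 33.1 FPKM in KO, and did not pass the test (log2 fold change 0.13, adjusted p = 0.0798 in limma), although it did with the chromosome median subtracted (0.15, adjusted p = 0.0347). Npat, whose product activates histone transcription, was at 10.8 to 11.9 FPKM in WT and 11.5 FPKM in both KO libraries. Ice1, a component of the little elongation complex, was at 10.5 to 11.2 FPKM in WT and rose to 14.2 and 14.6 FPKM (log2 fold change 0.39, adjusted p = 0.00193), and Cdk9, the kinase of P-TEFb, was called higher (log2 fold change 0.18). The Cdk9 call was lost without KO replicate 2 (adjusted p = 0.106), WT replicate 1 (0.0551), WT replicate 2 (0.0582) or WT replicate 3 (0.0787). Lsm11, a U7-specific protein, was at 1.09 to 1.20 FPKM in WT and fell to 0.81 and 0.61 FPKM (log2 fold change -0.62, adjusted p = 0.0203), but lies on chromosome 11 and was not called with the chromosome median subtracted (-0.14) or without KO replicate 2 (adjusted p = 0.0831), WT replicate 1 (0.0552), WT replicate 2 (0.0507) or WT replicate 3 (0.068). Of the 8 genes called lower, 3 lie on chromosome 11. With chromosome medians subtracted, 4 of the 32 were called higher and 4 lower, beside 18.5% and 18.7% of all tested genes. Of 20 genes of histone RNA decay, 2 (10%) were called higher and 4 (20%) lower, among them the checkpoint kinase gene Atr (log2 fold change -0.31). The rises were in Lsm5 (0.33) and Lsm3 (0.16), whose products belong to the ring that binds the RNA end, but with chromosome medians subtracted neither was called (0.16 for Lsm5 and -0.01 for Lsm3). The Lsm5 call was also lost without KO replicate 2 (adjusted p = 0.0687), and that of Lsm3 without KO replicate 1 (0.0622) or WT replicate 3 (0.0586).

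The transcripts of replication-independent histone genes carry a poly(A) tail for the most part. Of 11 such genes tested, 2 (18.2%) were called higher and 4 (36.4%) lower, beside 18.8% and 22.3% of all tested genes. Among the 4, 2 lie on chromosome 11. With chromosome medians subtracted, 1 of the 11 was called higher and 2 lower, beside 18.5% and 18.7% of all tested genes. H2afz was at 233, 262 and 246 FPKM in WT and at 294 and 284 FPKM in KO, a log2 fold change of 0.23 (SE 0.06, adjusted p = 0.0213 in limma), and the call was lost without KO replicate 1 (adjusted p = 0.0962), KO replicate 2 (0.0624) or WT replicate 3 (0.0673). H2afj rose by 0.50 and H2afv fell by 0.48 on the log2 scale, but H2afv is on chromosome 11 and came to 0.00 with the chromosome median subtracted, and H2afj, within 100 kb of Hist4h4, was then not called (0.33, adjusted p = 0.0703). The H2afj call was also lost without KO replicate 2 (adjusted p = 0.118), WT replicate 2 (0.0664) or WT replicate 3 (0.0619). H2afx, whose transcripts come in a stem-loop form and a poly(A) form, was at 48.8 to 50.8 FPKM in WT and 51.5 and 56.1 FPKM in KO and was not called (log2 fold change 0.11, adjusted p = 0.115), although it was without KO replicate 1 (0.17, adjusted p = 0.0386). Of 26 histone chaperone genes, 4 (15.4%) were called higher and 5 (19.2%) lower, with Ubn1 (0.54) and Ssrp1 (0.29) the largest rises. Npm1 fell by 0.38 on the log2 scale, but it is on chromosome 11, and its difference was 0.10 with the chromosome median subtracted.

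Because histone RNA is made in S phase, genes of DNA replication were given for comparison. Of 40, 7 (17.5%) were called higher, 10 (25%) lower and 23 not, with a median of -0.02, close to the 18.8% and 22.3% of all tested genes. The ribonucleotide reductase gene Rrm2 was at 82.8 to 89.9 FPKM in WT and rose to 112 and 101 FPKM (log2 fold change 0.29, adjusted p = 0.0121, and 0.0537 without KO replicate 1), and Cdk2 rose by a log2 fold change of 0.24. Rpa1, coding for the large subunit of the single-strand binding protein RPA, was at 64.8 to 71.4 FPKM in WT and fell to 40.1 and 38.7 FPKM (log2 fold change -0.77, adjusted p = 0.00041 in limma). It is 1 of 3 on chromosome 11 among the 10 genes called lower, and with the chromosome median subtracted it was still called (-0.29, adjusted p = 0.00263). The share of cells in S phase was not measured in these data.

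Other short RNAs also lack a poly(A) tail. The list held RNAs made by RNA polymerase III, small nuclear, nucleolar and Cajal body RNAs and the telomerase RNA Terc. Of 9 tested, none was called in limma, beside 41.1% of all tested genes. Their median log2 fold change was 0.20, and their sums overlapped between genotypes (1995 to 2437 FPKM in WT, 2055 and 2377 FPKM in KO). At an unadjusted p under 0.05 in limma, 3 of the 9 passed, and the called genes, 41.1% of all tested genes, pass that threshold too. Scarna13 (0.28) and Rnu73b (0.21) were higher and Terc (-0.46) lower on the log2 scale, named after their values were seen. The part of RNA class or of the depletion step in the histone values was not tested.

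Markers of ES cells and neighbouring cell states were also listed. Of 10 ES cell genes, 4 (40%) were called higher and 1 (10%) lower, beside 18.8% and 22.3% of all tested genes, with rises in Klf4 (log2 fold change 0.74) and Tfcp2l1 (0.60) and a fall in Dppa3 (-2.31). Of 5 tested primitive endoderm markers, Sox7 (20%) was called higher (log2 fold change 1.82, with 0.09 to 0.15 FPKM in WT and 0.90 and 0.48 FPKM in KO), and of 6 tested trophectoderm markers, Eomes (16.7%) was called higher (2.00) and Tfap2c lower (-0.44), a call lost without KO replicate 2 (adjusted p = 0.0578). The summed level of the 8 primitive endoderm markers was 100 to 103 FPKM in WT and 88.0 and 98.3 FPKM in KO, and that of the 8 trophectoderm markers 16.7 to 18.8 and 15.1 and 16.7 FPKM. Their part in the histone values was not tested.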

How the data were processed

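RNA-seq of 3 WT and 2 KO libraries was used, from a series of 26 samples. The authors deposited FPKM per gene, rounded to 2 decimals. Per the labels, RNA was rRNA-depleted, libraries were made with the ScriptSeq v2 kit and read as pairs of 150 bp on mm10. The submitters' processing notes list FastQC 0.11.5, Trim Galore 0.2.7, BWA 0.6.2, Picard, MACS2 2.1.0 and STAR 2.5.2. The program and annotation behind FPKM are not given in the sources used here. ZFP57 peaks were deposited as intervals, each called in at least 2 of 3 WT replicates per the study's methods. Groups follow the genotype in the labels. The labels number the libraries but do not say which are separate lines, so p-values measure only the spread between these samples, and an exact permutation test of 1 gene could not go below p = 0.1.

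WT and KO were compared in limma 3.58.1 (eBayes with trend, R 4.3.3) on log2(FPKM + 0.1) for genes averaging 0.1 FPKM or more, with Benjamini-Hochberg adjustment over 14612 genes and a threshold of 0.05. Fold changes on this scale understate changes of low genes. Fragments per gene were inferred from FPKM steps of genes of 60 to 600 bp, 93.2 to 94.8% of which came out whole within 0.15 fragments (30% by chance), and carry counting error. Sequences, transcript lengths, promoters and the printed positions of members came from RefSeq on GRCm38. Gene positions otherwise came from GENCODE vM21, which placed 23366 genes by symbol, all members included. RefSeq symbols and synonyms placed 264 and 685 more, and 94 had none. Python 3.11.15 with numpy 2.4.6, pandas 2.3.3, pysam 0.24.0 and matplotlib 3.10.9 was used.

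The members, gene lists and tests were chosen with earlier results of these data known. Named were all H1, Hist3 and Hist4 members, the 2 highest members of each core type, the 5 highest and 5 lowest called fold changes, and in each list the 2 called genes with the largest fold change and the lowest one of the other sign, with Slbp, Npat, H2afx, H2afz and Zfp57. Other genes named for their position, sequence or nearly equal fragments were chosen after their values were seen. Alternatives were other pseudocounts, filters, scalings and variance models, a replicate block, chromosome medians subtracted, a size limit and each library left out. Counting pairs of rows with nearly equal fragments (within 0.5%) once, leaving out Hist1h4d and chromosome medians without the members were added after seeing the data.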

Additional observations from a re-analysis of the deposited data

How the results depend on the processing

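The 32 calls kept their direction under every alternative. The median fold change (0.12 to 0.19) and the log2 ratio of the sums (0.16 to 0.26) stayed positive. Counts of calls moved more. Members called came to 16 (23.5%, beside 36.5% of all tested genes) without the trend, 21 (30.9%, beside 29.1%) without a filter and 3 with a fold change of at least 1 on the log2 scale, and those higher to 12, 17 and 0 and those lower to 3 with the size limit. With chromosome medians subtracted, 23 members (33.8%, beside 37.2%) were called, and the calls numbered 17 in Hist1, 4 in Hist2, 4 in H2B and 1 in H4. These medians include the members, 54 of the 556 tested genes of chromosome 13, so part of the fall in Hist1 comes from the members themselves. With the members left out of the medians, the difference subtracted on chromosome 13 was 0.03 instead of 0.05, and 25 members (36.8%, beside 37.3%) were called, 19 in Hist1, 4 in Hist2, 4 in H2B and 3 in H4. Without the trend they were 12 in Hist1, 7 in H2A, 3 in H2B and 0 in H4 (4 at an unadjusted p under 0.05 in limma). Without a filter they were 17 in Hist1, 4 in H2B and 1 in H4. With the size limit they were 1 in Hist1, 0 in Hist2, 1 in H1, 0 in H2A, 2 in H2B, 0 in H3 and 0 in H4, and 1172 of all genes. Hist2 had 4 calls with a filter of 1 FPKM and 4 with a pseudocount of 0.01, and H4 had 3 with median-ratio scaling. With median-ratio scaling 26 members were called (38.2%, beside 41.1%). Apart from the size limit, under which no member was higher, the share of members called higher stayed above that of all tested genes, by least without the trend (17.6% beside 16%). Leaving out each library gave 16 to 25 members called, 13 to 22 higher and 3 to 5 lower, with 13 to 22 in Hist1, 2 to 3 in Hist2, 2 to 3 in H1, 6 to 11 in H2A, 3 to 7 in H2B, 3 to 6 in H3 and 0 to 4 in H4. In the fits that left out a WT library, 29.3 to 32.6% of all tested genes were called and 14 to 14.7% were called higher. The cause of the moves in these counts was not tested. With chromosome medians subtracted, Lsm3 came to -0.012 and Npm1 to 0.10 (-0.013 and 0.10 with the members left out). Without the trend the calls of Hist3h2bb-ps, Hist1h2bb, Cdk9, Lsm3 and H2afz were lost too.

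Libraries with the same replicate number did not deviate together (correlations of deviations -0.07 and -0.04). The deviations of the 2 KO libraries mirror each other, so this cannot decide whether the numbers pair the libraries. With the replicate block, 27 members (23 of them also called without it), 2 H4 genes and 3012 of all genes were called. Of the named genes, Hist1h3b and Hist2h4 gained a call with it and Hist1h1b, Hist1h2ae, Hist1h2bl, Atr, Cdk9, Lsm11, Lsm3, H2afj, H2afz, Rrm2 and Tfap2c lost theirs. Members with 9 to 18 fragments in KO, Hist1h1t and Hist3h2ba among them, are limited by depth.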
